A study of Mus musculus with 12 samples.

Results

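The genes described here are the glucocorticoid receptor gene Nr3c1, a group of genes known to respond to glucocorticoids in liver (Fkbp5, Tsc22d3, Sgk1, Dusp1, Errfi1, Klf9, Mt1 and Mt2), and Zbtb16. They are 10 of the 35275 mouse genes in the expression table, chosen by name, and all 10 were found by Ensembl identifier. Whole livers of 12 male mice were sequenced by RNA-seq, 3 mice in each of 4 groups, with a separate mouse behind every library. Wild-type (WT) mice and Pctp-/- mice received either chow or a diet depleted of methionine and choline (MCD), which injures the liver. Pctp-/- mice lack PC-TP, a phosphatidylcholine transfer protein, in the whole body, so the deletion was not limited to hepatocytes. The study's methods give a strain background, an age, fasting periods and hours of collection for a floxed line on chow or a high-fat diet, and do not say whether these also hold for the mice described here. The length of MCD feeding is not given in the sources used here.

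Glucocorticoids, the steroid hormones of the adrenal cortex, enter cells and bind a receptor held in the cytoplasm by heat shock proteins. The bound receptor moves to the nucleus, attaches to DNA at glucocorticoid response elements and raises the transcription of some genes while lowering others. The adrenal gland releases the hormone in a daily rhythm and during fasting and stress, and its targets in liver include enzymes of glucose output and amino acid breakdown, feedback inhibitors of the receptor itself, and metallothioneins. Zbtb16 encodes PLZF, a zinc finger repressor that glucocorticoids induce in several tissues and that natural killer T cells also need for their development.

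Zbtb16 was in the list because earlier results of these same libraries had shown it to be lower in Pctp-/- livers on chow and to differ between genotypes in its response to diet. Those values draw on all 12 libraries, so Zbtb16 is described here without a test. The other 9 genes were chosen for their known biology, with results of these data already known, and were tested. Expression is given as FPKM, mapped fragments scaled by the length of the gene and by sequencing depth, so levels of different genes are per length. Differences were taken between values of log2(FPKM + 1), a scale that makes changes of weakly expressed genes look smaller. They were tested two-sided with limma over the 12466 genes that averaged at least 0.5 FPKM, with Benjamini-Hochberg adjustment. A gene was called changed at an adjusted p under 0.05.

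Uniquely mapped reads ranged from 30486576 to 55179468 per library. Chow libraries mapped uniquely at 77.6 to 79.4% of reads with a read error rate of 0.03%, and MCD libraries at 85.7 to 87.5% with 0.01%, so an effect of diet and of what set these rates apart cannot be told apart. The labels name no batch, and within each diet both genotypes lay in these ranges. Pctp, the targeted gene, had an FPKM of 1.21 to 2.65 in the WT and 0.330 to 0.566 in the Pctp-/- livers on chow. On MCD the ranges were 3.61 to 7.90 and 0.156 to 0.329, and the genotypes did not overlap on either diet. Its difference was -1.07 (SE 0.23, limma adjusted p = 0.15) on chow and -2.33 (SE 0.23, limma adjusted p = 0.000624) on MCD. Of 6 hepatocyte markers, 5 were found by the symbol used, and Tf was not, which does not show that the gene is absent. These 5 were among the abundant transcripts, with a summed FPKM of 43383 to 48927 in WT and 46692 to 48484 in Pctp-/- livers on chow. On MCD the sum was 60578 to 68560 in WT and 74811 to 82304 in Pctp-/- livers. Most of it was Alb, whose mean FPKM was 27788 on chow and 43899 on MCD for WT livers. For Pctp-/- livers these means were 28262 and 57218. The 5 markers did not move together, with 3 called higher on MCD and 1 lower for each genotype. Apoa1 was the lower one. Its log2 differences were -0.45 for WT (limma adjusted p = 0.0249) and -0.55 for Pctp-/- mice (limma adjusted p = 0.00979). Ttr did not pass (-0.03 and 0.04). In whole liver, fewer cells of a type and less RNA per cell cannot be told apart.

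Before the values, 3 stretches of sequence around gene starts are shown, because they hold letters matching the glucocorticoid element at Sgk1 and the metal element at the metallothioneins, genes known to respond to the hormone and to zinc. The sequences and gene starts are RefSeq's on GRCm38.p6. The 16 start windows searched belonged to 8 of the 10 genes, each running from 250 bases before to 50 bases after a start. No window of Zbtb16 or Nr3c1 was searched, which says nothing of whether RefSeq holds starts for them. Both strands were searched for the palindromic glucocorticoid response element (AGAACA, any 3 letters, TGTTCT) and for the core of the metal response element, TGCACNC or TGCGCNC, to which the zinc sensor MTF1 binds. The full glucocorticoid element was found in 3 of 32851 start windows of all genes (0.00913%), and in 1 of the 16 windows here, which belonged to a start of Sgk1 at chr10:21993640-21993939. The metal element core was more common, at 25.7% of all windows, but 3 or more matches occurred in 1.97% of windows, among them the windows of Mt1, with 3 matches, and Mt2, with 4. Matching letters are a description of the sequence and not evidence of binding, and the absence of a match says nothing of sites elsewhere. Capitals mark the matched letters, all sequences are on the plus strand 5′ to 3′, and the gene start is position 0. The Sgk1 stretch is chr10:21993640-21993749, from position -250 to -141. The Mt1 stretch is chr8:94178989-94179115, from -100 to 26, and the Mt2 stretch is chr8:94172388-94172628, from -230 to 10.
Sgk1, glucocorticoid element: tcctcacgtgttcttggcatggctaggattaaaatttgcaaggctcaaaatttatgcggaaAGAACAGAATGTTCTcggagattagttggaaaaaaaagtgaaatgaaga
Mt1, metal element cores: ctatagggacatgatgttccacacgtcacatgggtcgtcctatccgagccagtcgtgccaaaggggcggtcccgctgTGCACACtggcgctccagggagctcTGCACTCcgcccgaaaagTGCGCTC
Mt2, metal element cores: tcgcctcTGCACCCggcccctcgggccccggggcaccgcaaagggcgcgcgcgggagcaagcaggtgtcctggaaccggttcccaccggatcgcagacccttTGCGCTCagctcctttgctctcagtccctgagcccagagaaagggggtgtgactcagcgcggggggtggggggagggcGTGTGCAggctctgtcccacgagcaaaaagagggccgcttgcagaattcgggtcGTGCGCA

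The receptor gene itself, Nr3c1 (ENSMUSG00000024431, chromosome 18, 39410545 to 39519421, minus strand, GRCm38), spanned a narrow range of levels. Its FPKM was 15.3, 11.5 and 12 in the WT chow livers and 13.8, 10.8 and 11.3 in the Pctp-/- chow livers. On MCD it was 12.6, 13 and 15.2 in WT and 14.8, 16.7 and 14.5 in Pctp-/- livers. Neighbouring groups overlapped throughout the order of the means, from 15.3 ± 1.17 (SD, n = 3) in Pctp-/- MCD livers down to 11.98 ± 1.58 (SD, n = 3) in Pctp-/- chow livers. In Pctp-/- mice the 3 MCD livers were all above the 3 chow livers, with a log2 difference of 0.34 (SE 0.13, limma adjusted p = 0.0425). That call was lost with median-of-ratios scaling between libraries (0.29, limma adjusted p = 0.0923) and with no filter on low values (limma adjusted p = 0.0661). It was also lost when Pctp-/- chow replicates 2 or 3 (0.27 and 0.30, limma adjusted p = 0.146 and 0.110), Pctp-/- MCD replicates 1, 2 or 3 (0.36, 0.28 and 0.37, limma adjusted p = 0.0731, 0.139 and 0.0607), WT chow replicate 3 (limma adjusted p = 0.0501) or WT MCD replicate 2 (limma adjusted p = 0.0550) was left out. The diet difference in WT was 0.07 (SE 0.13, limma adjusted p = 0.640), and the genotype differences were -0.10 on chow and 0.16 on MCD, with adjusted p-values from limma of 0.975 and 0.554.

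Fkbp5 (ENSMUSG00000024222, chromosome 17, 28399094 to 28517527, minus strand) encodes FKBP51, a co-chaperone that lowers the receptor's affinity for hormone and is itself strongly induced by it. On chow its FPKM was 12.1, 31.2 and 18.1 in WT and 3.03, 4.70 and 11.7 in Pctp-/- livers. In the MCD livers it was 18.9, 17.8 and 29.8 in WT and 23.6, 39.7 and 32.9 in Pctp-/- livers. The lowest levels of Fkbp5 were thus those of the Pctp-/- chow livers, all below every other library, and the other 3 groups overlapped with their neighbours. In Pctp-/- mice Fkbp5 rose on MCD, from a mean of 6.48 ± 4.60 (SD, n = 3) to 32.1 ± 8.13 (SD, n = 3), a 4.95-fold higher mean, with a log2 difference of 2.29 (SE 0.40, limma adjusted p = 0.000572). In WT mice the same comparison gave 0.17 (SE 0.40, limma adjusted p = 0.735). The difference between these diet effects was 2.12 (SE 0.57, limma adjusted p = 0.139), which did not pass the threshold, and neither did the lower level in Pctp-/- than in WT livers on chow, at -1.60 (SE 0.40, limma adjusted p = 0.239). Over the alternatives the adjusted p of the chow difference ran from 0.0776 to 0.733.

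**Figure D1:**
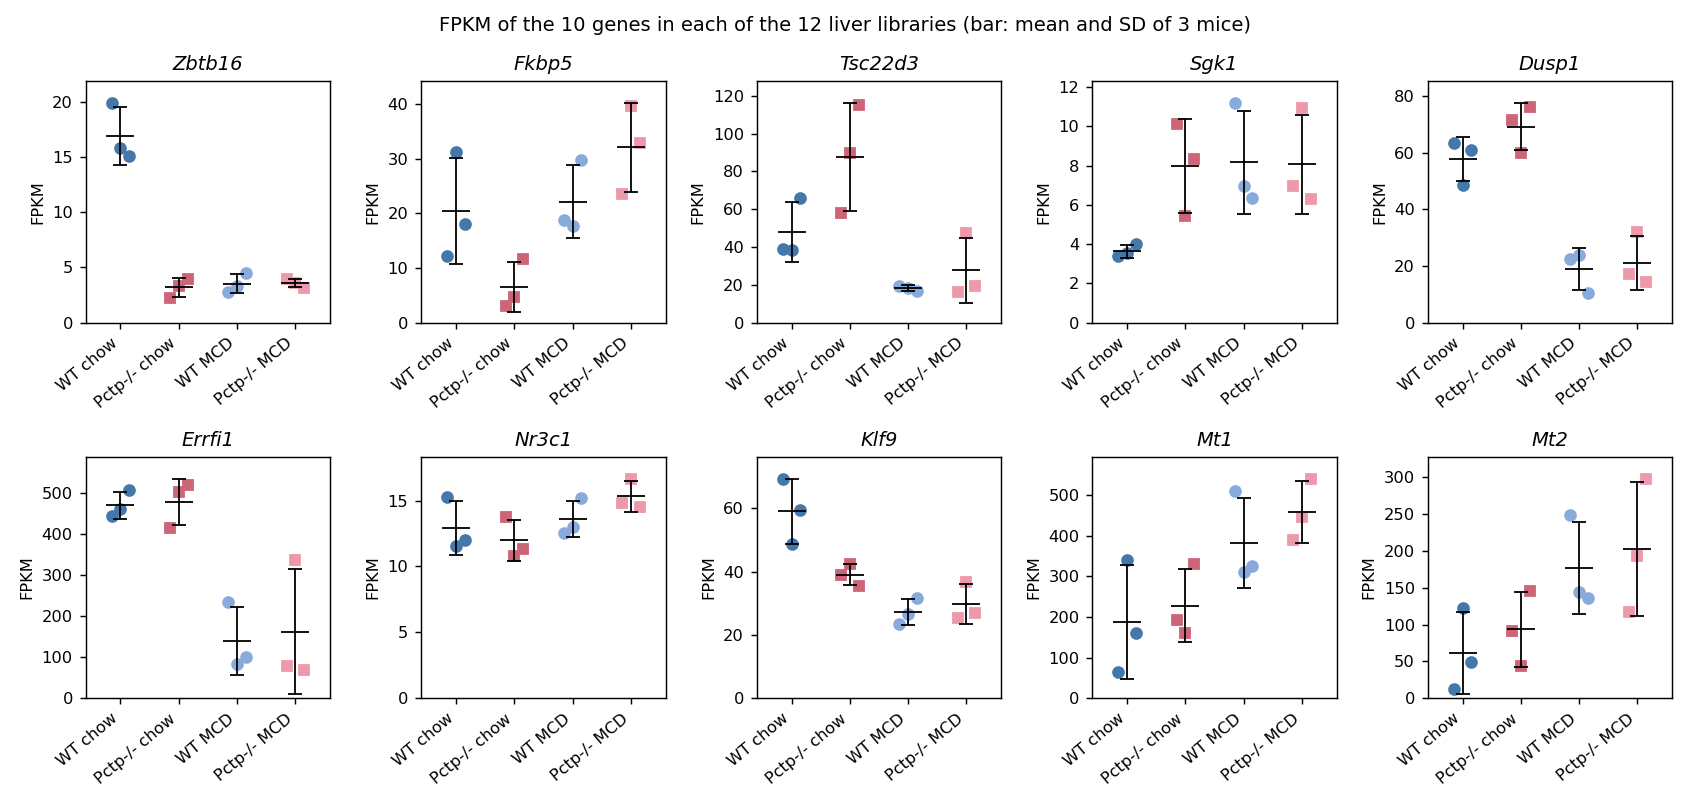
FPKM of the 10 genes (vertical axes, linear from 0, a different range for each gene) in the 12 libraries, grouped along the horizontal axis by genotype and diet; circles are WT and squares Pctp-/- livers, and the bars give the mean and SD of 3 mice. Zbtb16 was high only in the WT chow livers (15.1 to 19.9), Fkbp5 was lowest in the Pctp-/- chow livers (3.03 to 11.7), and Dusp1 and Errfi1 were lower on MCD in both genotypes.

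Zbtb16 (ENSMUSG00000066687, chromosome 9, 48654297 to 48836222, minus strand) had a different pattern. Its FPKM was 19.9, 15.8 and 15.1 in WT chow livers and 2.27, 3.33 and 3.93 in Pctp-/- chow livers. On MCD it was 2.81, 3.28 and 4.47 in WT and 3.95, 3.59 and 3.17 in Pctp-/- livers. The 3 WT chow livers stood apart from the other 9 libraries, which lay between 2.27 and 4.47 and overlapped between their groups. The WT chow mean, 16.9 ± 2.60 (SD, n = 3), was 5.32-fold that of Pctp-/- chow livers, 3.18 ± 0.842 (SD, n = 3), and 4.80-fold that of WT MCD livers, 3.52 ± 0.857 (SD, n = 3). On the log2 scale the difference was -2.11 (SE 0.17) between genotypes on chow, 0.03 (SE 0.17) between genotypes on MCD, -1.99 (SE 0.17) for diet in WT and 0.15 (SE 0.17) for diet in Pctp-/- mice. These values chose the gene and carry no test.

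Since PLZF is also made by natural killer T cells, markers of NKT, T and NK lymphocytes were summed. The 13 markers, of which 4 passed the filter on low values, summed to an FPKM of 1.98 to 3.20 in WT chow livers, 2.14 to 5.63 in Pctp-/- chow livers, 3.97 to 7.06 in WT MCD livers and 5.34 to 6.88 in Pctp-/- MCD livers. The sums of both genotypes overlapped on each diet, and 0 of the 13 markers were at 0 in every library. The part of these cells or of hepatocytes in the level of Zbtb16 was not tested.

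Among the 12465 other tested genes, those whose levels followed Zbtb16 most closely over the 12 libraries were Mypopos (Pearson r = 0.93), Pitpnc1 (0.93), Slc39a14 (0.92), Arhgef26 (0.90) and Gm15542 (0.89). Slc39a14, which encodes the zinc and iron importer ZIP14, had a mean FPKM of 79.8 ± 8.99 (SD, n = 3) in WT chow livers against 52.9 ± 7.44, 44.9 ± 0.196 and 47.7 ± 2.37 (SD, n = 3 each) in Pctp-/- chow, WT MCD and Pctp-/- MCD livers. Arhgef26, a guanine nucleotide exchange factor, had 19.99 ± 5.55 (SD, n = 3) in WT chow livers against 9.26 ± 1.90, 7.33 ± 2.5 and 7.28 ± 1.00 (SD, n = 3 each). The most opposite patterns were those of Gosr2 (-0.88), Ntpcr (-0.86) and Sgk1 (-0.86), the last of them in the glucocorticoid group. Klf9 ranked 45 for likeness to Zbtb16 (r = 0.81), whereas Fkbp5 (0.20), Tsc22d3 (0.17) and Nr3c1 (-0.10) showed little likeness. These correlations are over 12 libraries that share 4 groups, with chow and MCD libraries also apart in mapping and error rates and the WT chow livers apart from the rest, and carry no p.

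Clock genes were followed beside Zbtb16 on chow. Of 19 tested, 3 were called between genotypes, all lower in Pctp-/- livers (0.136% of all tested genes were called), and 14 had an unadjusted p under 0.05 (6.98% of all). Among the genes not called, Arntl (1.203), Nfil3 (0.93) and Npas2 (0.81) had log2 differences in the other direction, with limma adjusted p-values of 0.195, 0.197 and 0.187, and Nfil3 and Npas2 were chosen after their values were seen. Dbp, a clock output factor, had an FPKM of 74.6 ± 31.0 (SD, n = 3) in WT chow livers against 7.02 ± 2.44 (SD, n = 3) in Pctp-/- chow livers, a log2 difference of -3.18 (limma adjusted p = 0.0492, called in 5 of 21 alternatives with adjusted p from 0.00729 to 0.265), and 11.1 ± 4.38 and 20.4 ± 16.7 (SD, n = 3 each) in WT and Pctp-/- MCD livers. The hour of collection of these mice is not stated, and its part in the levels of Zbtb16 or of any gene described here was not tested.

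**Figure D2:**
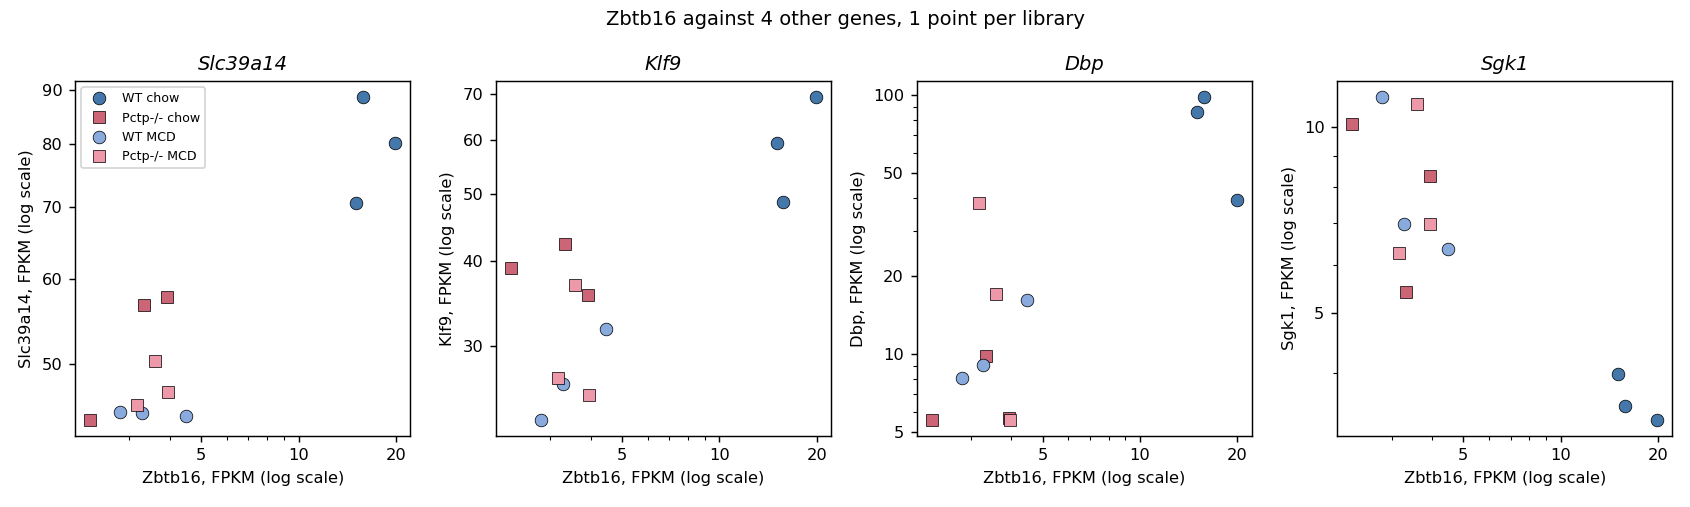
FPKM of Zbtb16 (horizontal axes) against Slc39a14, Klf9, Dbp and Sgk1 (vertical axes), both on log scales, with 1 point for each of the 12 libraries, circles for WT and squares for Pctp-/- mice. The 3 WT chow livers lie apart at the right, high in Slc39a14, Klf9 and Dbp and low in Sgk1 (3.37 to 4.0), and the other 9 libraries form a cluster with Zbtb16 between 2.27 and 4.47.

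Klf9 (ENSMUSG00000033863, chromosome 19, 23141226 to 23168134, plus strand), a Krüppel-like transcription factor induced by glucocorticoids and thyroid hormone, was also highest in WT chow livers. Its FPKM was 69.2, 48.7 and 59.3 in these, and 39.0, 42.3 and 35.6 in Pctp-/- chow livers. With MCD feeding it was 23.5, 26.5 and 31.8 in WT and 25.4, 36.8 and 27.0 in Pctp-/- livers. Klf9 fell on MCD in WT mice, with all 3 MCD livers below all 3 chow livers (log2 difference -1.09, SE 0.16, limma adjusted p = 0.000142). In Pctp-/- mice the groups overlapped and the difference was -0.39 (SE 0.16, limma adjusted p = 0.0612), which became -0.55 (limma adjusted p = 0.0152) when Pctp-/- MCD replicate 2 was left out, within a range of 0.0152 to 0.207 over all alternatives. On chow the Pctp-/- livers were all below the WT livers, but the difference of -0.58 (SE 0.16, limma adjusted p = 0.314) did not pass, nor did the difference between the diet effects, 0.69 (SE 0.23, limma adjusted p = 0.188).

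Sgk1 (ENSMUSG00000019970, chromosome 10, 21882184 to 21999903, plus strand), the serum- and glucocorticoid-induced kinase whose element is printed above, ran opposite to Zbtb16. Its FPKM was 3.37, 3.55 and 4.0 in WT chow livers and 10.1, 5.42 and 8.35 in Pctp-/- chow livers. On MCD it was 11.2, 6.97 and 6.35 in WT and 6.98, 10.9 and 6.27 in Pctp-/- livers. WT chow livers were below all other libraries, and the other groups had nearly the same mean, 7.97 ± 2.38, 8.17 ± 2.63 and 8.05 ± 2.5 (SD, n = 3 each) in Pctp-/- chow, WT MCD and Pctp-/- MCD livers. Sgk1 rose on MCD in WT mice by 0.95 (SE 0.24, limma adjusted p = 0.00502), against 0.02 (SE 0.24, limma adjusted p = 0.962) in Pctp-/- mice. The difference between genotypes on chow was 0.92 (SE 0.24, limma adjusted p = 0.267) and that between the diet effects was -0.93 (SE 0.34, limma adjusted p = 0.223), so neither passed. The Pctp-/- group on chow did not overlap with WT for Fkbp5 and Klf9, which were lower, and for Sgk1, which was higher, 3 of the 9 tested genes against 10.6% of all tested genes.

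Tsc22d3 (ENSMUSG00000031431, chromosome X, 140539528 to 140600659, minus strand) encodes GILZ, an anti-inflammatory leucine zipper protein and a direct target of the receptor. On chow its FPKM was 39.1, 38.6 and 66.0 in WT and 57.9, 89.5 and 115.1 in Pctp-/- livers, which overlapped. Under the MCD diet it was 19.5, 18.6 and 16.7 in WT and 15.9, 47.5 and 19.3 in Pctp-/- livers. Tsc22d3 fell on MCD in both genotypes, by 1.30 in WT (log2 difference -1.30, SE 0.35, limma adjusted p = 0.00764) and by 1.74 in Pctp-/- mice (-1.74, SE 0.35, limma adjusted p = 0.00155), and MCD libraries were below chow libraries in each. The chow difference between genotypes was 0.85 (SE 0.35, limma adjusted p = 0.662).

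Dusp1 (ENSMUSG00000024190, chromosome 17, 26505590 to 26562128, minus strand) encodes the phosphatase MKP-1, which switches off MAP kinases. Its FPKM was 63.3, 48.8 and 61.1 in WT and 71.7, 60.0 and 76.2 in Pctp-/- chow livers. On MCD it was 22.4, 24.0 and 10.5 in WT and 17.0, 31.9 and 14.2 in Pctp-/- livers. Every MCD library was below every chow library, a fall by 1.63 in WT (log2 difference -1.63, SE 0.30, limma adjusted p = 0.000692) and by 1.75 in Pctp-/- mice (-1.75, SE 0.30, limma adjusted p = 0.000519). Genotypes overlapped on both diets. Gm8225 and Ergic1 overlap Dusp1 on the opposite strand, and whether reads were counted by strand is not given in the sources used here.

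Errfi1 (ENSMUSG00000028967, chromosome 4, 150853919 to 150868892, plus strand) encodes MIG6, a feedback inhibitor of the EGF receptor, and had the highest mean FPKM of the group on chow. It measured 443, 461 and 508 FPKM in WT and 414, 503 and 520 FPKM in Pctp-/- chow livers. On MCD it measured 236, 84.6 and 100.4 FPKM in WT and 79.1, 338 and 69.2 FPKM in Pctp-/- livers. Errfi1 fell on MCD by 1.89 in WT (log2 difference -1.89, SE 0.50, limma adjusted p = 0.00664) and by 1.95 in Pctp-/- mice (-1.95, SE 0.50, limma adjusted p = 0.00660), again with no overlap between diets. Its coefficient of variation rose from 7.07% in WT chow livers and 11.8% in Pctp-/- chow livers to 59.2% and 94.1% on MCD, the last being the largest of the group. 1700045H11Rik overlaps Errfi1 on the opposite strand.

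The metallothioneins Mt1 (ENSMUSG00000031765, chromosome 8, 94179082 to 94180327, plus strand) and Mt2 (ENSMUSG00000031762, chromosome 8, 94172664 to 94173568, plus strand) bind zinc and copper and lie next to each other. Mt1 measured 63.6, 340.4 and 161 FPKM in WT and 193, 160.4 and 329 FPKM in Pctp-/- chow livers. On MCD Mt1 measured 511, 311 and 324 FPKM in WT and 389.5, 447 and 540.0 FPKM in Pctp-/- livers. Levels of Mt1 were thus higher on MCD, but WT chow replicate 2 reached the range of the WT MCD livers.

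For Mt2 the FPKM was 12.9, 122.6 and 49.4 in WT and 91.3, 44.2 and 146 in Pctp-/- chow livers. After MCD feeding the values were 249, 145 and 136 in WT and 117, 193 and 298 in Pctp-/- livers. The WT diet groups did not overlap for Mt2, and the Pctp-/- groups did. In WT mice both rose on MCD, Mt1 by 1.29 (SE 0.47, limma adjusted p = 0.0327) and Mt2 by 1.95 (SE 0.66, limma adjusted p = 0.0237). In Pctp-/- mice the values were 1.06 (SE 0.47, limma adjusted p = 0.0761) for Mt1 and 1.16 (SE 0.66, limma adjusted p = 0.161) for Mt2. Without WT chow replicate 1, which had the lowest values, the WT differences were 0.66 for Mt1 (limma adjusted p = 0.136) and 1.12 for Mt2 (limma adjusted p = 0.101). Leaving out WT MCD replicate 1 also ended both calls, at limma adjusted p-values of 0.114 and 0.0827, as did using no filter on low values (0.0752 and 0.0582). The Mt1 call was lost as well without WT chow replicate 3 (0.0602) or WT MCD replicate 3 (0.0511), with median-of-ratios scaling (0.0616) and with only these groups fitted (0.0652). The Mt1 difference in Pctp-/- mice passed instead without WT chow replicates 1 or 2 or Pctp-/- chow replicate 3 (limma adjusted p = 0.0167, 0.0242 and 0.0456) and with only the groups compared (0.0127). In WT mice the adjusted p-values lay within ranges over all alternatives of 0.00223 to 0.136 for Mt1 and 0.00320 to 0.101 for Mt2. How reads shared by these related genes were assigned is not given in the sources used here.

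The ratio of Mt1 to Mt2 was 2.78 to 4.92 in WT chow, 2.11 to 3.63 in Pctp-/- chow, 2.05 to 2.38 in WT MCD and 1.81 to 3.33 in Pctp-/- MCD livers. After subtracting the mean of each group, their deviations correlated at r = 0.97 over the 12 libraries, the closest of any pair in the group. The next closest were Tsc22d3 with Errfi1 (0.75), Sgk1 with Errfi1 (0.71), Nr3c1 with Klf9 (0.69), Fkbp5 with Mt1 (0.69) and Sgk1 with Dusp1 (0.69). The most negative were Klf9 with Mt1 (-0.67) and Nr3c1 with Mt1 (-0.63). These are descriptions of 12 livers, with no p.

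Pctp-/- MCD replicate 2 stood apart in several of these genes. It was the highest library of its group for Errfi1 (338 FPKM against 79.1 and 69.2), Tsc22d3, Dusp1, Sgk1, Fkbp5, Klf9 and Nr3c1, and its deviation from the group mean was the largest of any library for Errfi1 (1.45 on the log2 scale), Tsc22d3 (0.93) and Klf9 (0.32). WT chow replicate 1 held the largest deviations for Mt1 (-1.24), Mt2 (-1.67) and Nr3c1 (0.23).

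**Figure D3:**
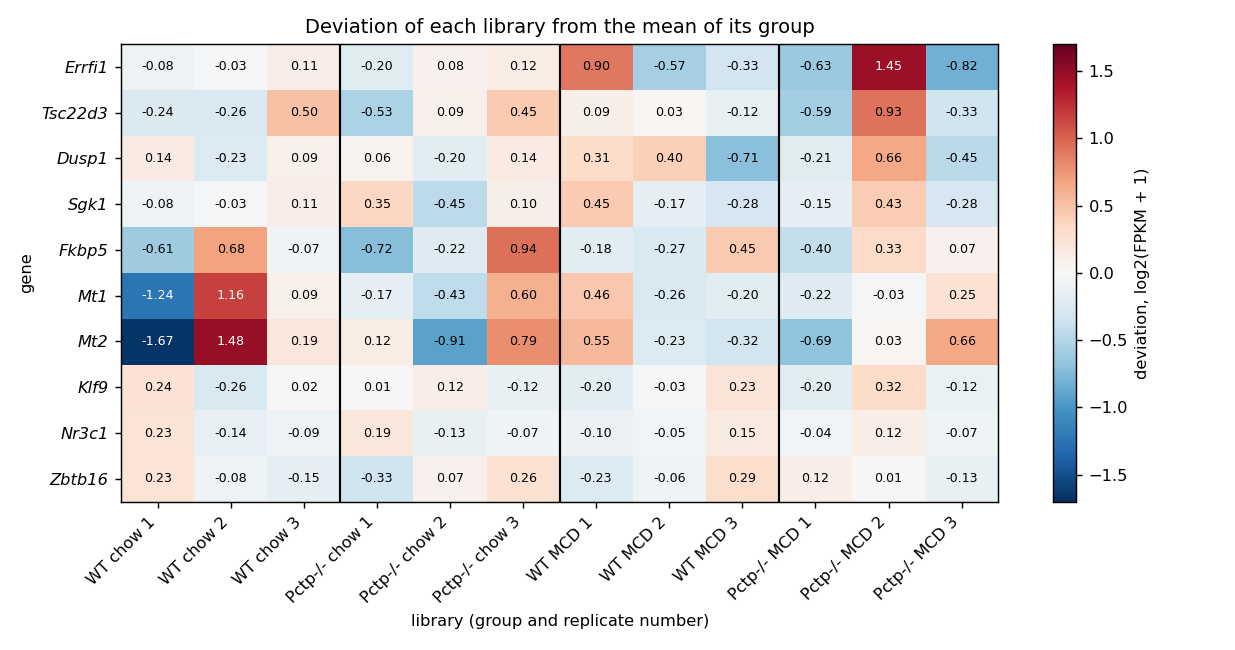
Deviation of each library from the mean of its group on the log2(FPKM + 1) scale (color and printed value), with genes as rows and the 12 libraries as columns, vertical lines separating the 4 groups. Mt1 and Mt2 deviate together, most in WT chow replicates 1 and 2, and Pctp-/- MCD replicate 2 is high in Errfi1 (1.45), Tsc22d3 (0.93) and Dusp1 (0.66).

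Counted over the 9 tested genes, the knockout on chow changed 0 at the adjusted threshold (limma; 0.136% of all tested genes passed) and 4 at an unadjusted p under 0.05, Fkbp5, Tsc22d3, Sgk1 and Klf9, against 6.98% of all tested genes. The knockout on MCD changed 0 of 9 (0.818% of all), and 0 at an unadjusted p under 0.05, and the groups did not overlap for 0 of 9 (26.6% of all tested genes). The difference of the diet effects passed for 0 of 9 (0.0963% of all) and reached an unadjusted p under 0.05 for 3, Fkbp5, Sgk1 and Klf9, against 15.1% of all. The diet changed 7 of 9 in WT mice, 3 higher and 4 lower, where 57% of all tested genes changed. In Pctp-/- mice it changed 5 of 9, 2 higher and 3 lower, where 50.3% of all tested genes changed. The diet groups did not overlap for 6 of 9 in WT (63.7% of all tested genes) and 6 of 9 in Pctp-/- mice (59.7%). Medians of the 9 differences were 0.26 for the knockout on chow, 0.15 for the knockout on MCD, 0.07 for diet in WT and 0.02 for diet in Pctp-/- mice, beside 0.01, -0.09, 0.11 and 0.04 over all tested genes. Without WT chow replicate 1 the counts for diet were 5 in WT and 6 in Pctp-/- mice, and without Pctp-/- MCD replicate 2 they were 7 and 5. Tsc22d3, Dusp1 and Errfi1 fell in both genotypes. Both diet comparisons had the same direction for these 3 genes in every alternative examined.

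**Figure D4:**
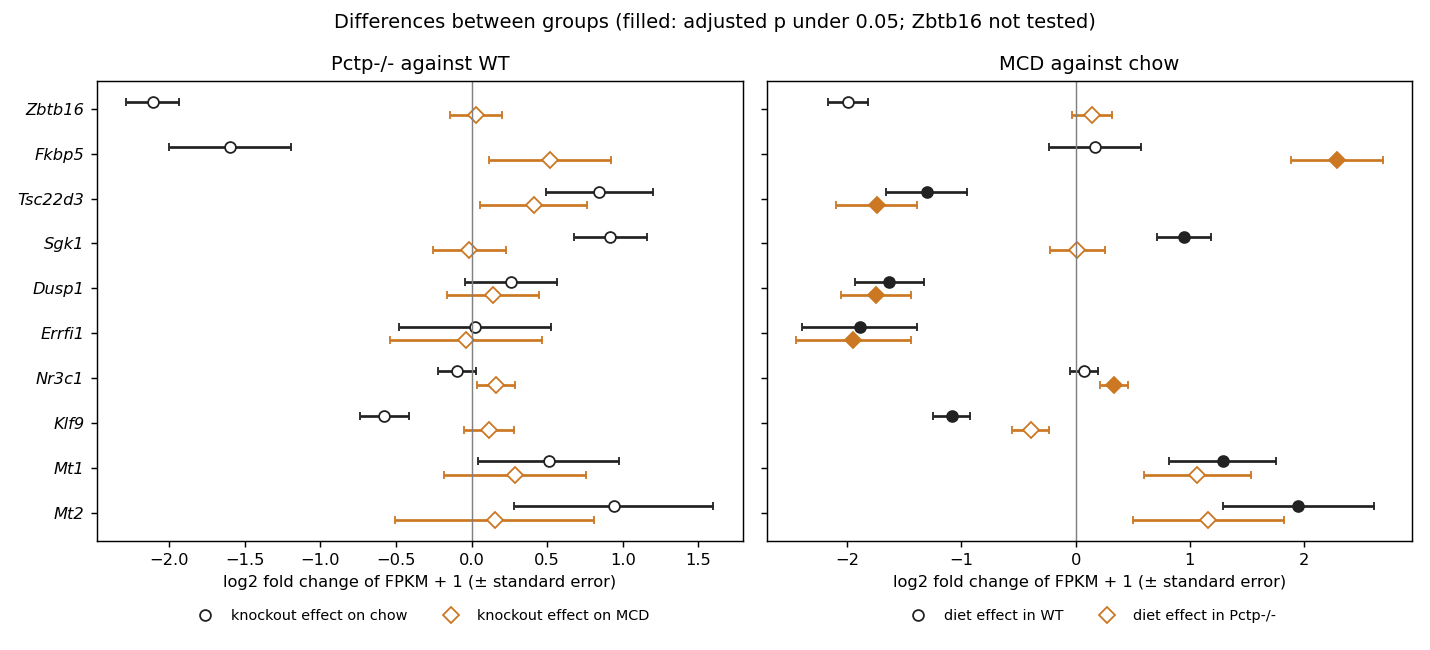
Log2 difference of FPKM + 1 with its standard error for the 10 genes, between genotypes on each diet (left) and between diets in each genotype (right); filled symbols have an adjusted p under 0.05 and Zbtb16 was not tested. No symbol is filled on the left, 7 are filled for WT and 5 for Pctp-/- mice on the right, and Tsc22d3, Dusp1 and Errfi1 lie at negative values in both genotypes.

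Markers of macrophages and neutrophils moved with the diet. In the other lists, 2 of 5 endothelial markers were called on MCD in WT and 0 of 5 in Pctp-/- mice. Of the stellate markers these counts were 2 of 6 and 1 of 6, and of the cholangiocyte markers 0 of 3 and 1 of 3. Of the lymphocyte markers 1 of 4 was called in each genotype, and the 1 tested B cell marker in neither. Of all tested genes, 57% were called in WT and 50.3% in Pctp-/- mice. The 7 Kupffer cell and macrophage markers summed to an FPKM of 56.0 to 92.8 in WT chow, 50.7 to 133 in Pctp-/- chow, 148 to 242 in WT MCD and 122 to 129 in Pctp-/- MCD livers, and 6 of the 7 rose on MCD in WT mice (34.5% of all tested genes) and 2 in Pctp-/- mice (26% of all). The 4 neutrophil markers, of which 2 passed the filter on low values, summed to 0.432 to 0.512, 0.147 to 2.91, 17.1 to 22.5 and 5.67 to 13.2 in the same order. These sums were almost wholly S100a8 and S100a9. Ly6g and Mpo were at 0 in every WT MCD liver and reached at most 0.0565 and 0.0503 FPKM in any library. No marker of any list was at 0 in all libraries. The part of these cells in the diet differences was not tested.

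The wider glucocorticoid pathway was followed together with clock and zinc handling genes in 72 further listed genes, of which 69 passed the filter on low values. The clock list gave 19 tested genes and the zinc handling list 4, and all 72 are called pathway genes here. The knockout changed 4 of them on chow (0.136% of all tested genes) and 1 on MCD (0.818% of all), the difference of the diet effects passed for 1, and the diet changed 45 in WT mice, 14 higher and 31 lower, and 35 in Pctp-/- mice, 12 higher and 23 lower. Over all tested genes, 34.5% were called higher and 22.5% lower on MCD in WT mice, and 26% and 24.4% in Pctp-/- mice. The median difference of the 69 genes was -0.35 for diet in WT and -0.11 in Pctp-/- mice. Clock genes made up 3 of the 4 calls for the knockout on chow, all lower. They also made up 12 of the 45 diet calls in WT mice, 2 higher and 10 lower. In Pctp-/- mice they were 6 of the 35 diet calls, 2 higher and 4 lower.

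Of the genes that supply and clear the hormone, 6 of 7 were tested. Hsd11b1, the enzyme that regenerates active glucocorticoid inside hepatocytes, was higher in Pctp-/- than in WT livers on MCD, with an FPKM of 525 ± 80.1 against 335 ± 39.0 (SD, n = 3 each), a log2 difference of 0.64 (limma adjusted p = 0.0349). It was the only gene of the 69 called between genotypes on MCD, and it was called in 11 of 21 alternatives (adjusted p from 0.00870 to 0.145), not with median-of-ratios scaling, with no filter on low values or when only these groups were fitted. H6pd, which makes the cofactor for that enzyme, fell on MCD by 0.77 in WT and by 0.79 in Pctp-/- mice (log2 differences -0.77 and -0.79, limma adjusted p = 6.76e-05 and 7.85e-05).

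The steroid reductases moved in opposite directions in both genotypes. Srd5a1, the 5-alpha-reductase, fell from an FPKM of 33.3 ± 5.17 to 5.69 ± 0.454 (SD, n = 3 each) in WT mice on MCD, a log2 difference of -2.35 (limma adjusted p = 1.26e-07). Akr1d1, the 5-beta-reductase, rose from 33.4 ± 3.42 to 130.6 ± 10.8 (SD, n = 3 each), a difference of 1.94 (limma adjusted p = 3.35e-07). In Pctp-/- mice the differences were -2.27 and 1.69 (limma adjusted p = 2.06e-07 and 1.09e-06). Serpina6, the corticosteroid-binding globulin of plasma, rose on MCD in Pctp-/- mice by 0.76 (limma adjusted p = 0.0292), against -0.09 in WT mice (limma adjusted p = 0.778), and the difference between these effects did not pass (0.86, limma adjusted p = 0.302).

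Of 7 chaperones that hold or mature the receptor, 4 changed on MCD in WT mice and 3 in Pctp-/- mice, shares near those of all tested genes (57% and 50.3%), and 0 passed between genotypes. Hsp90ab1, the constitutive HSP90, fell by 0.66 in WT mice (log2 difference -0.66, limma adjusted p = 0.000239). The cochaperone genes Dnaja1 (0.39, limma adjusted p = 0.0412) and Ptges3 (0.31, limma adjusted p = 0.0402) rose, and Fkbp4, the counterpart of Fkbp5, fell (-0.35, limma adjusted p = 0.0261). Of 10 coregulators, 6 changed on MCD in WT and 5 in Pctp-/- mice, again near the 57% and 50.3% of all tested genes. The acetyltransferase gene Crebbp fell (-0.85 in WT, limma adjusted p = 0.000846), while the coactivator gene Ppargc1a (1.04, limma adjusted p = 7.65e-05) and the corepressor gene Nrip1 (0.54, limma adjusted p = 0.0218) rose.

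Genes of metabolism that glucocorticoids induce mostly fell on MCD, 6 of 10 lower and 2 higher in WT mice and 6 lower and 1 higher in Pctp-/- mice. Of all tested genes, 22.5% were called lower and 34.5% higher in WT mice, and 24.4% and 26% in Pctp-/- mice. G6pc, the last step of glucose output, fell in WT mice from an FPKM of 241 ± 82.8 to 31.1 ± 11.8 (SD, n = 3 each; log2 difference -2.90, limma adjusted p = 0.00461) and in Pctp-/- mice, with a difference of -3.32 (limma adjusted p = 0.00244). Pck1, which starts gluconeogenesis, had a difference of -1.47 in Pctp-/- mice (limma adjusted p = 0.0128), although its groups overlapped there. Tat, a tyrosine aminotransferase long used as a marker of the hormone's action, fell in Pctp-/- mice (-1.61, limma adjusted p = 0.000703) and had a difference of -0.35 in WT mice (limma adjusted p = 0.327).

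Lpin1, a phosphatidate phosphatase, and Irs2, an insulin receptor substrate, fell in WT mice by 1.95 and 1.90 (log2 differences -1.95 and -1.90, limma adjusted p = 0.000751 and 0.00170). Against this direction, Pdk4, which limits glucose oxidation, rose in WT mice from an FPKM of 1.2 ± 0.328 to 24.2 ± 10.9 (SD, n = 3 each; 3.43, limma adjusted p = 9.09e-06) and in Pctp-/- mice by 2.31 (limma adjusted p = 0.000224). Between genotypes 0 of these 10 genes passed on either diet (0.136% of all tested genes on chow and 0.818% on MCD). At an unadjusted p under 0.05 there were 2 on chow (6.98% of all) and 1 on MCD (16.3% of all).

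Of 14 regulators induced by glucocorticoids, 11 changed on MCD in WT mice, 7 of them lower, where 57% of all tested genes changed and 22.5% were lower. The count in Pctp-/- mice was 10, 8 of them lower, against 50.3% and 24.4% of all tested genes. Cebpb, a liver transcription factor, fell in WT (-2.40, limma adjusted p = 0.000130) and Pctp-/- mice (-3.25, limma adjusted p = 1.72e-05). Lcn2, an iron-siderophore binding protein also made in inflammation, rose by 5.66 and 4.81 (limma adjusted p = 1.04e-06 and 4.77e-06), and Gadd45b, a stress gene, by 2.86 and 1.69 (limma adjusted p = 0.000191 and 0.00744). Ddit4, an inhibitor of mTORC1, rose in WT mice by 4.07 (limma adjusted p = 2.82e-05), against 0.49 in Pctp-/- mice (limma adjusted p = 0.430).

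Bcl6, a transcriptional repressor, was the regulator that the knockout changed on chow. Its FPKM was 4.55 ± 1.24 in WT and 19.4 ± 5.37 in Pctp-/- livers on chow and 4.64 ± 1.21 and 3.56 ± 0.751 (SD, n = 3 each) on MCD. The chow difference was 1.87 (limma adjusted p = 0.00536, called in 20 of 21 alternatives with adjusted p from 0.00332 to 0.104), and the fall on MCD in Pctp-/- mice was by 2.13 (-2.13, limma adjusted p = 1.59e-05). Fkbp5, Sgk1 and Klf9, whose Pctp-/- livers also did not overlap with WT livers on chow, did not pass the test of the knockout on that diet. The clock genes Dbp, Per3 and Bhlhe41 did pass it, lower in Pctp-/- livers (limma adjusted p = 0.0492, 0.0478 and 0.0453). Each of these 3 calls held in only 5 of its alternatives.

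Beside Mt1 and Mt2, 4 of 6 listed genes of zinc handling were tested. The diet changed 2 of the 4 in WT and 1 in Pctp-/- mice, where 57% and 50.3% of all tested genes changed. Mtf1, the metal sensor, had a mean FPKM of 3.34, 3.19, 3.36 and 3.13 in WT chow, Pctp-/- chow, WT MCD and Pctp-/- MCD livers and passed in no comparison. Slc30a1, the zinc exporter that MTF1 induces, likewise passed in none, with 9.02, 8.16, 9.60 and 8.97. Slc39a10, a zinc importer, rose on MCD in WT (0.50, limma adjusted p = 0.00435) and Pctp-/- mice (0.48, limma adjusted p = 0.00603), and Slc39a14 fell on MCD in WT mice (-0.81, limma adjusted p = 7.85e-05). Mt3 and Mt4, the other metallothionein genes, were listed at 0 in every chow library, and Mt4 was listed at 0 in every MCD library too.

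**Figure D5:**
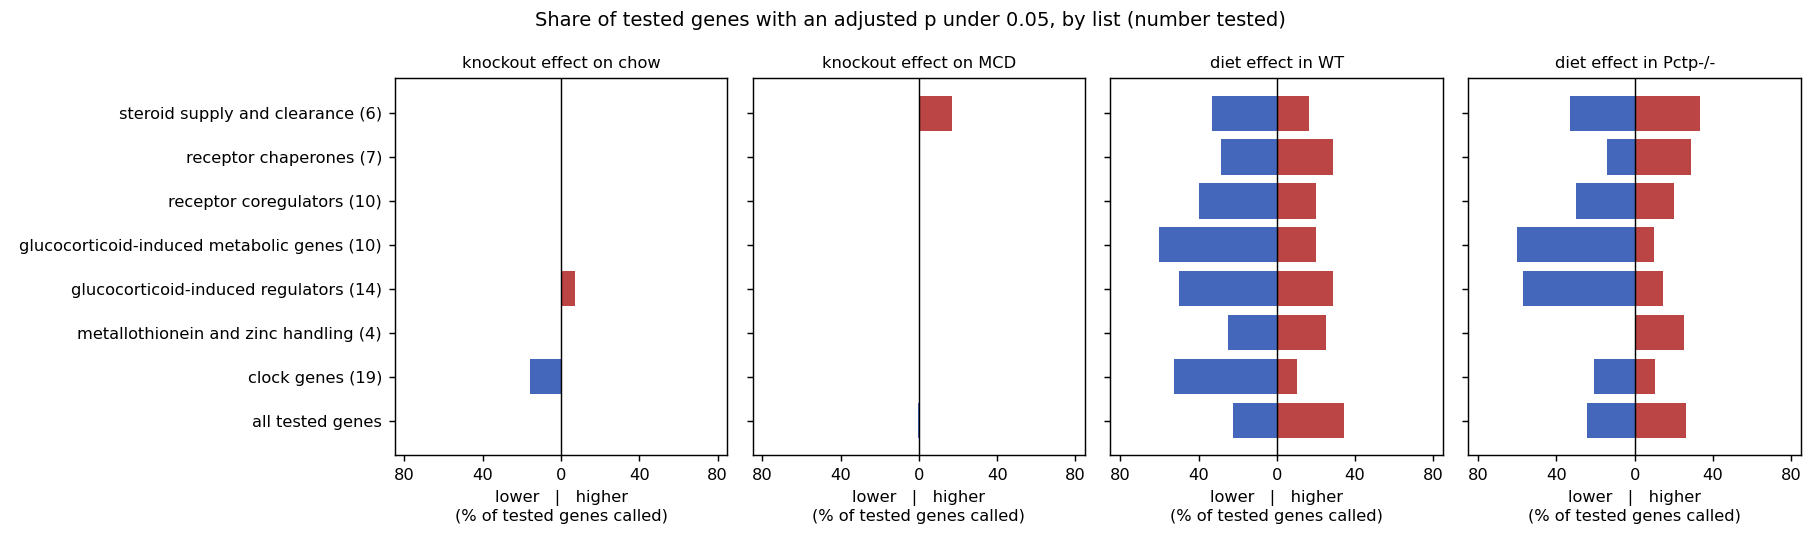
Share of the tested genes of each pathway list, and of all tested genes (bottom bar), called higher (right of 0, red) or lower (left of 0, blue) at an adjusted p under 0.05 in 4 comparisons; the number of tested genes is in parentheses. The knockout called few genes in any list on either diet, and on MCD the glucocorticoid-induced lists had more genes lower than higher in both genotypes, whereas all tested genes had more higher than lower in WT mice (34.5% against 22.5%).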

How the data were processed

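Liver RNA of 12 mice was sequenced by Novogene. The table deposited by the authors holds FPKM for every gene in each library, the only expression unit used, beside a second table with read totals as whole counts of reads and mapping and quality measures as percent, used here for depth. The submitters' notes name genome build mm10, and the aligner, counter and annotation are not given in the sources used here. Symbols and positions came from GENCODE M21 (GRCm38), which held 34490 of the 35275 identifiers. Groups and replicate numbers came from the labels. Each library was a different mouse, and no pair held identical values.

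FPKM values are not counts, so limma 3.58.1 (R 4.3.3) on log2(FPKM + 1) was used in place of the Wald test named by the study, with 1 mean per group over all 12 libraries, a mean-variance trend, a mean FPKM of at least 0.5 (12466 genes) and Benjamini-Hochberg adjustment, with no minimum fold. The fit was tested on simulated data. The members and all gene lists were chosen with earlier results of these data known. Named genes are the 10 members, at most 4 called genes per list and comparison by size of the difference, all of a list of 6 or fewer, the 5 genes most and 3 least like Zbtb16, and Pctp. Shared replicate numbers number different mice. The correlation of same-numbered deviations was -0.0972 to 0.225 over 18 pairs, above 0.1 in 8. Differently numbered pairs were not compared, so these values do not exclude an effect shared by replicate number. No block was used in the main fit. The alternatives were the pseudocount, filter, scaling, libraries in the fit, block, trend, robust fit and each library left out. Python 3.11.15 and matplotlib 3.10.9 drew the figures.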

Additional observations from a re-analysis of the deposited data

Results flagged for a closer look

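For 7 of the listed pathway genes the responses to diet in the 2 genotypes are set against each other, each given as the diet effect in Pctp-/- minus that in WT mice on the log2 scale. Bcl6 passed the test of the difference itself (-2.16, SE 0.33, limma adjusted p = 0.0399), which held in 12 of 20 alternatives with adjusted p from 0.0118 to 0.139. It fell on MCD in Pctp-/- mice and had a difference of 0.03 in WT mice. For 6 further genes the difference did not pass. They were picked from these same values because the libraries of 2 groups separated in opposite directions. Of all tested genes, the diet groups did not overlap for 63.7% in WT and 59.7% in Pctp-/- mice. The genotypes did not overlap for 10.6% on chow and 26.6% on MCD. How many of all tested genes separated in opposite directions was not counted. Arntl, the core clock activator, had -1.81 (limma adjusted p = 0.0953), with MCD livers all above chow livers in WT and all below in Pctp-/- mice. Per3 (2.56, limma adjusted p = 0.0675) and Bhlhe41 (1.95, limma adjusted p = 0.0775), both clock repressors, went the other way, lower on MCD in WT and higher in Pctp-/- mice. Ddit4 had -3.58 (limma adjusted p = 0.0694), with Pctp-/- above WT livers on chow and below on MCD. Slc39a14 (0.67, limma adjusted p = 0.116) and Pik3r1, a regulatory subunit of PI3 kinase (0.69, limma adjusted p = 0.157), had Pctp-/- below WT livers on chow and above on MCD. Arntl, Bhlhe41 and Pik3r1 were named after their values were seen. Of the 10 genes described above, none separated in opposite directions in this way.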

How the results depend on the processing

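Of the 9 tested genes, 0 were called for the knockout on chow, the knockout on MCD or the difference of the diet effects under every alternative run, and 5 to 7 were called for diet in WT and 4 to 6 for diet in Pctp-/- mice. Of the 12 calls made on them, 9 held under every alternative and none changed direction, and the exceptions were the WT diet calls of Mt1 and Mt2 and the Pctp-/- diet call of Nr3c1. Median-of-ratios scaling moved the median diet difference of all tested genes in WT mice from 0.11 to -0.0013, by more than any other comparison, and none of the 12 calls changed sign with it. Zbtb16 moved with a pseudocount of 0.1, to -2.40 for the knockout on chow, -2.25 for diet in WT and 2.44 for the difference.

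The number of pathway genes called for the knockout on chow, 4, became 2 with a filter of 5 FPKM, 1 with no filter, 1 with quantile normalization, 1 with median-of-ratios scaling, 0 when only the groups compared were fitted, 1 without the trend, 2 with the robust fit, and 1 to 7 when a library was left out (7 without WT chow replicate 1). For the knockout on MCD, 1 became 2 with the filter of 5, 0 with no filter, 0 with median-of-ratios scaling, 0 when only the groups compared were fitted, and 0 to 2 when a library was left out. For the difference of the diet effects, 1 became 0 with the pseudocount of 0.1, 0 with no filter, 0 with median-of-ratios scaling, and 0 to 6 when a library was left out (6 without WT chow replicate 1). With the replicate number as a block these counts were 7 on chow, 1 on MCD and 7 for the difference. The labels do not pair mice by replicate number, and the block changed no count of the 9 tested genes by more than 1.5 times. The causes were not tested, beside the smaller number of samples when libraries were left out.

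Zbtb16, which carries no test, changed direction for its 2 smallest differences when a library was left out. The ranges were -0.085 to 0.18 for the knockout on MCD and -0.020 to 0.28 for diet in Pctp-/- mice. Among the 9 tested genes, direction changed only for differences that had not passed the threshold. With quantile normalization these were Errfi1 for the knockout on chow (-0.00010), Sgk1 for the knockout on MCD (0.087), Nr3c1 for diet in WT (-0.011) and Dusp1 for the difference (0.022). With median-of-ratios scaling they were, for the knockout on MCD, Sgk1 (0.083) and Errfi1 (0.073), Nr3c1 for diet in WT (-0.059), Sgk1 for diet in Pctp-/- mice (-0.024) and Errfi1 for the difference (0.040). Leaving out libraries gave ranges for the knockout on chow of -0.041 to 0.12 for Errfi1, -0.20 to 0.018 for Nr3c1 and -0.11 to 1.09 for Mt1. For the knockout on MCD they were -0.052 to 0.71 for Tsc22d3, -0.23 to 0.21 for Sgk1, -0.22 to 0.37 for Dusp1, -0.76 to 0.41 for Errfi1, -0.044 to 0.23 for Klf9 and -0.18 to 0.50 for Mt2. For diet they were -0.13 to 0.51 for Fkbp5 and -0.0033 to 0.19 for Nr3c1 in WT and -0.21 to 0.19 for Sgk1 in Pctp-/- mice. For the difference they were -0.48 to 0.11 for Dusp1, -0.78 to 0.39 for Errfi1, -0.80 to 0.40 for Mt1 and -1.53 to 0.045 for Mt2. Expression was analysed as FPKM and not as counts, so no counting interval stands beside the low values.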
